A study of Mus musculus with 6 samples.

Results

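The genes described here are Trp53, which encodes the transcription factor p53, and 9 genes that p53 is known to activate directly: Mdm2, Ccng1, Bax, Trp53inp1, Sesn1, Aen, Ei24, Gadd45a and Fas. They were taken by gene symbol from the table of the series, and all 10 were found among its 11108 listed genes. The table holds RNA-seq values from hematopoietic stem cells of mouse bone marrow, from mice labelled WT or Mcph1-/-, with 3 libraries of each genotype and no treatment. Mcph1 encodes microcephalin, which acts in chromosome condensation and in the response to DNA damage. Strain, age, sex, the deleted part of the gene and whether separate mice gave the libraries are not stated in the labels, so p-values rest on differences between libraries that may only be technical. Cells were sorted as lineage-negative, Sca-1+, c-kit+, CD34-, CD150+, 200 per library, and made into Smart-seq2 libraries, a full-length cDNA method for few cells.

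p53 is held at a low level in unstressed cells by the ubiquitin ligase Mdm2, which marks it for degradation. DNA damage, stalled replication and ribosomal stress release it, and it then binds paired copies of a short half-site in or near its target genes. Mdm2 is itself a target and closes a feedback loop, while other targets stop the cell cycle, repair DNA or start apoptosis. In hematopoietic stem cells p53 is known for keeping cells quiescent and for removing damaged cells. Since p53 is controlled mainly at the level of the protein, the level of its transcript does not measure its activity.

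The half-site is the letter pattern through which p53 recognises these genes, and the copies nearest to the gene starts are shown here with 10 bases on either side. Promoter windows of 300 bases, from 250 before to 50 after each start, came from RefSeq (build GRCm38.p6, the assembly also called mm10). They matched 9 of the 10 genes, all but Trp53inp1. The p53 half-site consensus has a core of C, 2 letters that are each A or T, and G, between 3 purines and 3 pyrimidines, reads the same on both strands and was searched with no mismatch. A half-site stood in a window of 8 of the 9 genes, or 9 of 11 windows, against 8.36% of all 32851 windows. The 2 Aen windows overlap and hold the same half-site, 10 bases after the upstream Aen start and 121 before the downstream one. A half-site was found for 6 of 30 matched genes in a wider list of p53 targets, against 9.55% of all 27025 genes with a window. Each sequence below is written 5′ to 3′ on the strand of its gene, with the half-site in capitals.
Trp53, chr11:69580274-69580303, plus strand: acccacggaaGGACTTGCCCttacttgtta
Mdm2, chr10:117710925-117710954, minus strand: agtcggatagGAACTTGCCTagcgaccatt
Ccng1, chr11:40755452-40755481, minus strand: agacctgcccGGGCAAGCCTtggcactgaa
Bax, chr7:45467080-45467109, minus strand: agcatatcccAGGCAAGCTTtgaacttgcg
Sesn1, chr10:41887256-41887285, plus strand: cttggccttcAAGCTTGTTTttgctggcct
Aen, chr7:78895927-78895956, plus strand: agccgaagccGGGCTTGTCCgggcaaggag
Ei24, chr9:36797325-36797354, minus strand: cgtgcggcccGGGCATGCCCagtgtgggcg
Gadd45a, chr6:67037428-67037457, minus strand: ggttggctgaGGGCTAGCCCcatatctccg

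The half-sites began 75 bases before the start of Trp53, 186 before that of Mdm2, 185 before Ccng1, 201 before Bax, 173 before the downstream of the 2 Sesn1 starts, 121 before the downstream of the 2 Aen starts, 10 before Ei24 and 40 before Gadd45a. The half-sites of Ccng1 and Bax were each beside a second one with a single mismatched letter, so that 19 of the 20 letters of a full p53 site matched, with at most 13 bases allowed between the copies. Such a match stood in 1.09% of all windows. The Fas window held no half-site. The p53 sites known best for Mdm2 and Gadd45a lie in introns, outside these windows, and a match of letters says nothing about binding in these cells.

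No member passed the test between the genotypes, and for most of them the libraries of a genotype differed too much to bound a change closely. A normalised read count is the number of reads of a gene divided by 1 size factor per library, as deposited. In a limma-trend fit of log2(normalised read count + 1) over all 10846 genes with a mean of at least 10, 0 of the 10 members had a Benjamini-Hochberg adjusted p of at most 0.05, against 4 genes or 0.0369% of all tested. At an unadjusted p under 0.05 the members again numbered 0, against 7.71% of all genes by the same limma fit. Without WT replicate 3 they numbered 1, Sesn1, beside 1237 of 10830 genes. By edgeR's quasi-likelihood test on recovered whole reads 0 members passed, against 0.0184% of all genes, and by DESeq2 0 passed, against 2.16%, with no adjusted p given for Ccng1, Trp53inp1, Ei24, Gadd45a and Fas. Unadjusted, 0 members had a p under 0.05 by either tool, against 5.47% of all genes by edgeR and 10.9% by DESeq2. WT and Mcph1-/- values overlapped for all 10 members, while 14.2% of all tested genes had groups that did not overlap. On the log2 scale 6 members had a higher and 4 a lower Mcph1-/- mean, and their median log2 fold change was 0.07. Over all tested genes 53.8% were higher and the median was 0.08. Without Mcph1-/- replicate 3, 3 members were higher and the median was -0.38.

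**Figure D1:**
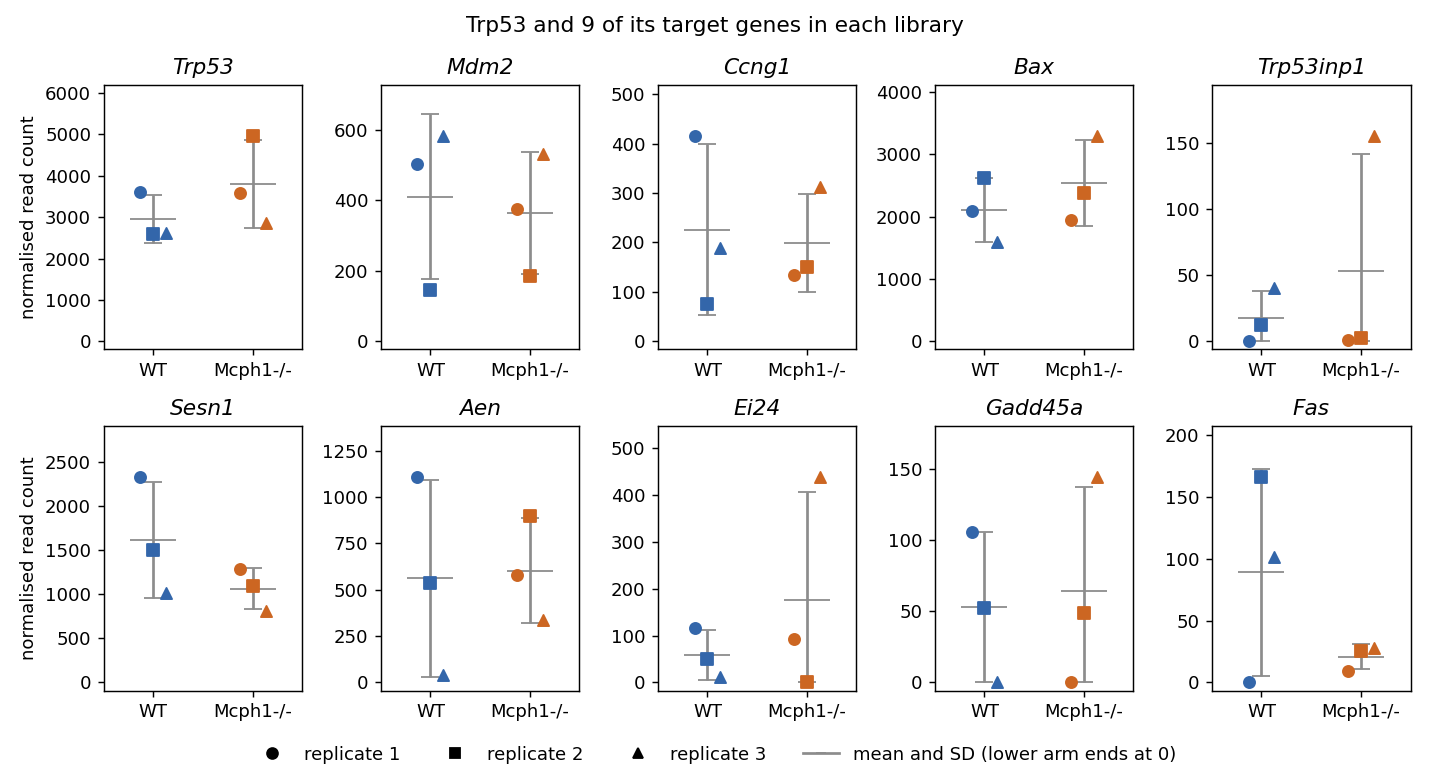
Normalised read count of Trp53 and 9 of its targets in each library (vertical axis, linear and separate for each gene), for WT and Mcph1-/- on the horizontal axis. Symbols are replicates, and grey bars are the mean and SD of 3 libraries. The groups overlap in all 10 panels, and Trp53inp1, Ei24, Gadd45a and Fas include libraries at 0.

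Trp53 was one of the more abundant genes of these cells. WT replicates 1, 2 and 3 had normalised read counts of 3616, 2602 and 2625, and Mcph1-/- replicates 1, 2 and 3, in the order kept for every gene, had 3575, 4958 and 2864. Mcph1-/- replicate 2 was the highest, and the other 5 libraries lay between 2602 and 3616. The WT mean was 2948 ± 579 and the Mcph1-/- mean 3799 ± 1065 (SD, n = 3). The log2 fold change, Mcph1-/- over WT, came to 0.35 ± 0.25 (SE), with a limma adjusted p of 0.720. The 95% confidence interval of that log2 fold change, -0.22 to 0.91, spans 0.859-fold to 1.88-fold, so a 2-fold change of the transcript in either direction lay outside it. Trp53 spans 69580359 to 69591873 on chromosome 11 (plus strand) in mm10. Wrap53, which encodes a protein of telomerase and Cajal bodies, starts 104 bases away on the other strand, and the annotated exons of both genes share no base. Wrap53 stood at 182, 615 and 243 in WT and at 161, 265 and 475 in Mcph1-/-, lowest in a Mcph1-/- library and highest in a WT library.

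Mdm2, the ligase that degrades p53, spread widely within each genotype. WT libraries held 504, 144 and 582, and Mcph1-/- libraries 376, 186 and 531. Replicate 2 was the lowest and replicate 3 the highest of each genotype, although the labels do not pair these numbers. Means were 410.2 ± 234 and 364 ± 173 (SD, n = 3), and the log2 difference was -0.06 (SE 0.69; 95% interval -1.65 to 1.53; limma adjusted p = 0.987). Per kilobase of exon, Mdm2 amounted to 0.0299 to 0.176 of the Trp53 level in the same library, with WT at 0.111, 0.0441 and 0.176 and Mcph1-/- at 0.0837, 0.0299 and 0.148. The ratio therefore differed more between libraries of a genotype than between the genotypes. Mdm2 spans 117688875 to 117710758 on chromosome 10 (minus strand).

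Ccng1, cyclin G1, which recruits protein phosphatase 2A to Mdm2, was also spread. It stood at 415, 75.2 and 188 in WT and at 133, 150.1 and 313 in Mcph1-/-. The highest and the lowest library were both WT. The log2 fold change was 0.03 (SE 0.86; limma adjusted p = 0.995), and edgeR gave -0.16. Ccng1 spans 40748552 to 40755311 on chromosome 11 (minus strand). Trp53inp1, a nuclear cofactor that favours p53-dependent death and autophagy, was the least abundant member. Its values were 0, 12.4 and 40.5 in WT and 0.912, 2.46 and 155 in Mcph1-/-, from 0, 12, 40, 1, 3 and 174 reads. A single library, Mcph1-/- replicate 3, held most of its reads, and a count of 0 in WT replicate 1 allows up to 3 reads there, a value of 3.25, by counting error only. Its log2 fold change of 0.30 had a 95% interval of -4.94 to 5.54 (limma adjusted p = 0.982), and edgeR gave 1.61 and DESeq2 1.58. With libraries of a genotype this far apart, the direction was not resolved. Trp53inp1 spans 11156431 to 11174379 on chromosome 4 (plus strand).

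Of the members that act in cell death, Bax was measured closely and the others were not. Bax, which opens the outer mitochondrial membrane in apoptosis, stood at 2092, 2621 and 1596 in WT and at 1946, 2376 and 3294 in Mcph1-/-. Mcph1-/- replicate 3 was the highest and WT replicate 3 the lowest. The means, 2103 ± 512 and 2539 ± 688 (SD, n = 3), differed by 0.27 on the log2 scale (SE 0.27; limma adjusted p = 0.791). The 95% interval of the fold change ran from 0.780 to 1.85. Bax spans 45461697 to 45466898 on chromosome 7 (minus strand), and 192 of its exonic bases are shared with the annotated gene Gm45808 on the same strand.

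Aen, a nuclease that digests DNA in dying cells, had one library far below the rest. Its values were 1106, 536 and 41.5 in WT and 577, 897 and 337 in Mcph1-/-. WT replicate 3 was the lowest and WT replicate 1 the highest, from 41 and 1020 reads. The log2 fold change was 0.93 (SE 1.11; 95% interval -1.61 to 3.47; limma adjusted p = 0.825), while the ratio of the group means was 1.08 and edgeR gave 0.13. Without WT replicate 3 the log2 fold change was -0.46. Aen spans 78895854 to 78911209 on chromosome 7 (plus strand).

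Ei24, a membrane protein of the endoplasmic reticulum linked to autophagy and growth suppression, stood at 116, 49.5 and 11.1 in WT and at 92.1, 0 and 437 in Mcph1-/-. Mcph1-/- libraries were both the highest and the lowest. On the log2 scale, where the library at 0 weighs most, the difference was -0.27 (SE 2.35; limma adjusted p = 0.984), while the ratio of the group means was 2.99 and edgeR gave a log2 fold change of 1.60. Ei24 spans 36779159 to 36797393 on chromosome 9 (minus strand) and shares 324 exonic bases with the antisense gene Gm26787. Fas, the receptor through which Fas ligand starts apoptosis, stood at 0, 166 and 101 in WT and at 9.12, 25.4 and 27.7 in Mcph1-/-. The 3 Mcph1-/- libraries lay between the WT library at 0 and the other 2 WT libraries. Means were 89.0 ± 83.6 and 20.7 ± 10.1 (SD, n = 3), the log2 fold change was -0.38 (SE 2.19; limma adjusted p = 0.972), and without WT replicate 1 it was -2.73. edgeR gave -2.07 with all libraries. Fas spans 34290666 to 34327772 on chromosome 19 (plus strand).

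Sesn1, sestrin 1, which restrains mTORC1 and counters peroxides, had the smallest p-value of the 10 members and was lower in Mcph1-/- on average. It stood at 2323, 1503 and 1013 in WT and at 1281, 1097 and 812 in Mcph1-/-. WT replicate 3 fell among the Mcph1-/- libraries, so the groups overlapped. The means, 1613 ± 662 and 1063 ± 236 (SD, n = 3), differed by -0.54 on the log2 scale (SE 0.35; limma unadjusted p = 0.157 and adjusted p = 0.696). The 95% interval ran from 0.394-fold to 1.20-fold. The adjusted p was 0.417 by DESeq2 and at least 0.401 in all 16 alternative analyses. Sesn1 spans 41809935 to 41908424 on chromosome 10 (plus strand), and Cep57l1, a centrosomal protein gene, starts 64 bases away on the other strand with no shared exonic base.

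Gadd45a, which slows the cell cycle and assists DNA repair after damage, stood at 105, 52.5 and 0 in WT and at 0, 48.4 and 144 in Mcph1-/-. Each genotype had a library at 0, one near 50 and one above 100. The log2 fold change was 0.11 (SE 2.55; 95% interval -5.75 to 5.97; limma adjusted p = 0.994). Gadd45a spans 67035096 to 67037457 on chromosome 6 (minus strand) and shares 337 exonic bases with E230016M11Rik on the other strand. As the strand setting of the counting is not given, it is not known how reads on these shared bases were assigned. E230016M11Rik stood at 44.5, 158 and 0 in WT and at 4.56, 13.9 and 84.8 in Mcph1-/-.

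**Figure D2:**
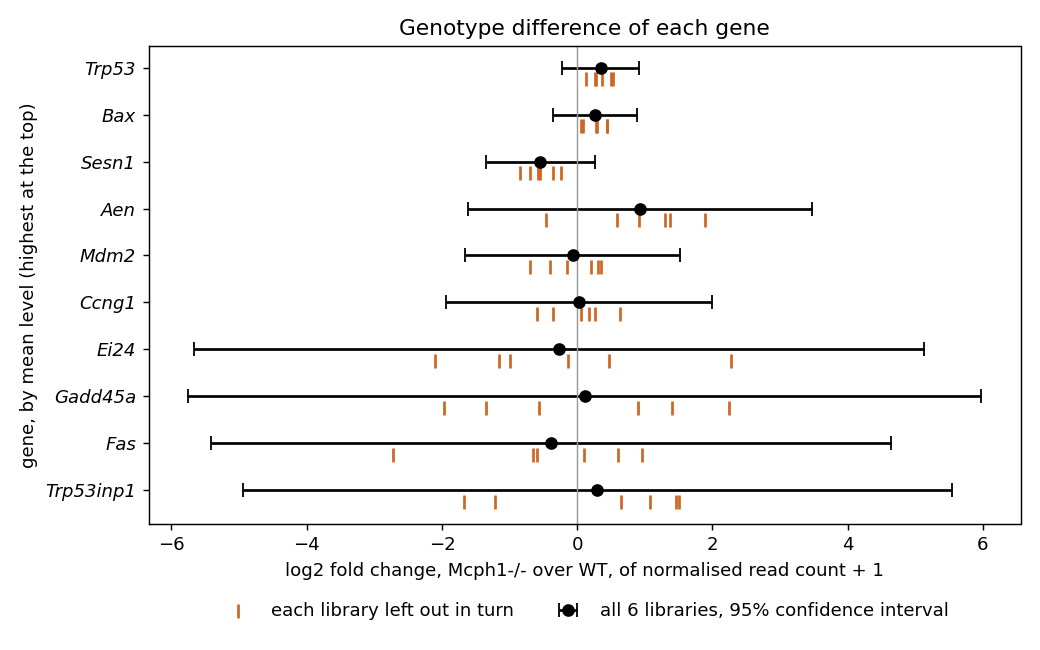
Log2 fold change (Mcph1-/- over WT, horizontal axis) of each member, ordered by mean level, with its 95% confidence interval from limma-trend, and orange ticks for the fits that leave out each library in turn. Every interval spans 0, those of Trp53, Bax and Sesn1 are the narrowest, and only these 3 members kept their direction whichever library was left out.

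Per kilobase of exon, the members ranked from Bax, at a normalised read count per kilobase of 1473 ± 376 (SD over 6 libraries), through Trp53 at 834 ± 222, Sesn1 at 336 ± 135, Aen at 100.4 ± 65.8, Mdm2 at 76.2 ± 36.5, Ccng1 at 60.5 ± 36.2, Gadd45a at 33.1 ± 32.5, Fas at 26.6 ± 31.6 and Ei24 at 24.1 ± 33.4 to Trp53inp1 at 5.45 ± 9.39. Bax exceeded Trp53 in 6 of 6 libraries although their ranges over libraries overlapped. The ranges of Trp53 and Sesn1 did not overlap, nor did those of Sesn1 and Aen. From Aen downwards every neighbouring pair overlapped, and the gene ranked higher led in 3 to 5 of 6 libraries. Among tested genes with an annotated length, Bax stood at the 94.4th percentile of level per kilobase, Trp53 at the 90.4th, Mdm2 at the 52.1st and Trp53inp1 at the 2.38th.

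The members fell apart by level in how much libraries of a genotype differed. The within-genotype SD on the log2 scale was 0.34 for Trp53, 0.37 for Bax and 0.48 for Sesn1, then 0.95 for Mdm2, 0.99 for Ccng1 and 1.82 for Aen. It was 2.94 for Fas, 3.12 for Trp53inp1, 3.43 for Ei24 and 3.71 for Gadd45a, the 4 members with a library at 0. The SD that the limma trend gives to genes of the same level was 0.26 for Trp53, 2.44 for Gadd45a and 0.66 for Aen. Aen, at 2.75 times its trend value, stood farthest above it, and Ccng1, at 0.89 times, was the only member below it.

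**Figure D3:**
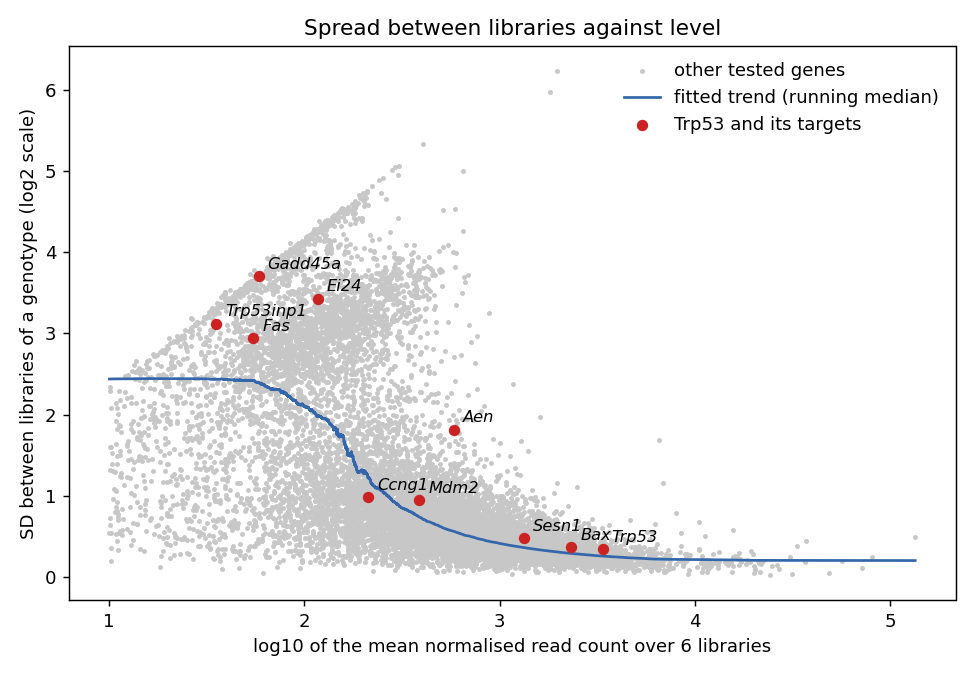
SD between libraries of a genotype (vertical axis, log2 scale) against the log10 of the mean normalised read count (horizontal axis) for all tested genes in grey, with the limma trend in blue and the 10 members in red. Trp53, Bax and Sesn1 lie near the lower right, and Fas, Trp53inp1, Ei24 and Gadd45a lie high at low mean level.

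The members did not move together across libraries. Over the 45 pairs of members, the Pearson correlation of log2 values across the 6 libraries had a median of 0.07 and ran from -0.78 for Trp53inp1 with Sesn1 to 0.80 for Bax with Gadd45a. It was 0.78 for Mdm2 with Ccng1. With Trp53 itself, 4 of the 9 targets had a positive correlation, from -0.65 for Trp53inp1 to 0.63 for Aen. These 6 points share 2 genotypes and few cells, and the values are a description. Of 7682 named genes with a mean of at least 100, those most like Trp53 over the 6 libraries were Rfk (r = 0.98), Cog8 (0.98) and Pa2g4 (0.98). Those most like Mdm2 were Cd44 (0.99), Srd5a3 (0.99) and Gnb1 (0.98), and among those most like Bax were Tomm5 (0.97) and Rnf111 (0.96).

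Mcph1-/- replicate 3 was the highest library for 4 members, Bax, Trp53inp1, Ei24 and Gadd45a, and WT replicate 1 for 3, Ccng1, Sesn1 and Aen. The summed value of the 8 listed neutrophil markers was 23154 in Mcph1-/- replicate 3 against 7686 and 8353 in the other Mcph1-/- libraries, while WT replicate 1, at 72056, lay between the other WT libraries. Within that sum, Elane and Mpo were high in both of these libraries. Elane stood at 3614, 138 and 1.01 in WT and at 3.65, 0 and 8095 in Mcph1-/-. Mpo stood at 5959, 1.03 and 2.02 in WT and at 1.82, 53.3 and 4856 in Mcph1-/-. Prtn3 was also highest of its genotype in both, by less, at 7287, 6426 and 2425 in WT and 2990, 3247 and 5459 in Mcph1-/-. S100a8, S100a9, Ngp, Camp and Lyz2 did not share this pattern. S100a8 stood at 17462, 18645 and 30971 in WT and 191, 327 and 153 in Mcph1-/-. Lyz2 stood at 10866, 7454 and 12241 in WT and 4400, 4628 and 4430 in Mcph1-/-. The part of these markers in the members' values was not tested. Together the 10 members took 0.0708% to 0.117% of the reads of a library, and Trp53, Bax and Sesn1 made up 78.1% to 86.7% of their summed normalised read count.

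Other target genes of p53 were read from a list of 39, of which 24 were tested. On the log2 scale 9 had a higher and 15 a lower Mcph1-/- mean, their median log2 fold change was -0.17 beside 0.08 over all genes, and 0 passed in either direction by limma. At an unadjusted p under 0.05 they numbered 2 of 24, Plk2 and Ndn, both lower, a share near the 7.71% over all genes and so no result about the list. Plk2, a kinase of centriole duplication and stress responses, stood at 453, 518 and 501 in WT and at 108, 144 and 149 in Mcph1-/-, so the groups did not overlap. Its log2 fold change was -1.88 (SE 0.53; limma adjusted p = 0.589), and the adjusted p was 0.000961 by DESeq2 and 0.803 by edgeR.

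Ndn, necdin, a growth suppressor known to hold hematopoietic stem cells in quiescence, stood at 582, 1033 and 895 in WT and at 771, 166 and 176 in Mcph1-/-, and the log2 difference was -1.52 (SE 0.64; limma adjusted p = 0.643). The next by p were Ak1, adenylate kinase 1 (log2 fold change -3.84, SE 1.77), Apaf1, the scaffold of the apoptosome (3.83, SE 1.94), and Rps27l, a ribosomal protein paralog (0.37, SE 0.20). The edgeR values were -2.61 for Ak1 and 4.69 for Apaf1. Cdkn1a, which encodes the cell cycle inhibitor p21, stood at 132, 8.24 and 378 in WT and at 73.9, 72.2 and 101 in Mcph1-/-. All 3 Mcph1-/- libraries lay within the range of WT, and the log2 difference was 0.09 (SE 1.52; limma adjusted p = 0.991). By edgeR it was -1.03, and 273 exonic bases of Cdkn1a are shared with the annotated gene AC167363.2. Its promoter window held 2 half-sites, as shown here with 10 bases on either side of the one nearer to the start.
Cdkn1a, chr17:29090918-29090947, plus strand: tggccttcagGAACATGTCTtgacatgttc

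Of 32 regulators and relatives of p53, 25 were tested, 14 with a higher and 11 with a lower Mcph1-/- mean on the log2 scale. Their median log2 fold change was 0.40. None passed by limma in either direction. An unadjusted p under 0.05 was found for 2 of 25, Set and Chek1, both higher, again a share near the 7.71% over all genes. Set, an inhibitor of protein phosphatase 2A that also binds p53, stood at 5148, 4276 and 4073 in WT and at 5880, 7055 and 6521 in Mcph1-/-. The groups did not overlap, and the log2 difference was 0.53 (SE 0.16; limma adjusted p = 0.603). The adjusted p was 0.0165 by DESeq2 and 0.778 by edgeR. Chek1, the checkpoint kinase of stalled replication, stood at 84.6, 0 and 0 in WT and at 166, 358 and 156 in Mcph1-/- (limma adjusted p = 0.626). Its log2 fold change was 5.58 by limma and 3.03 by edgeR, and depends on the pseudocount because 2 WT libraries are at 0. The next by p were its upstream kinase Atr (log2 fold change 3.66, SE 1.96, and 1.55 by edgeR), Usp7, a protease that removes ubiquitin from p53 and Mdm2 (-1.29, SE 0.69), and Mdm4, the partner of Mdm2 that blocks p53 (-1.17, SE 0.64).

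**Figure D4:**
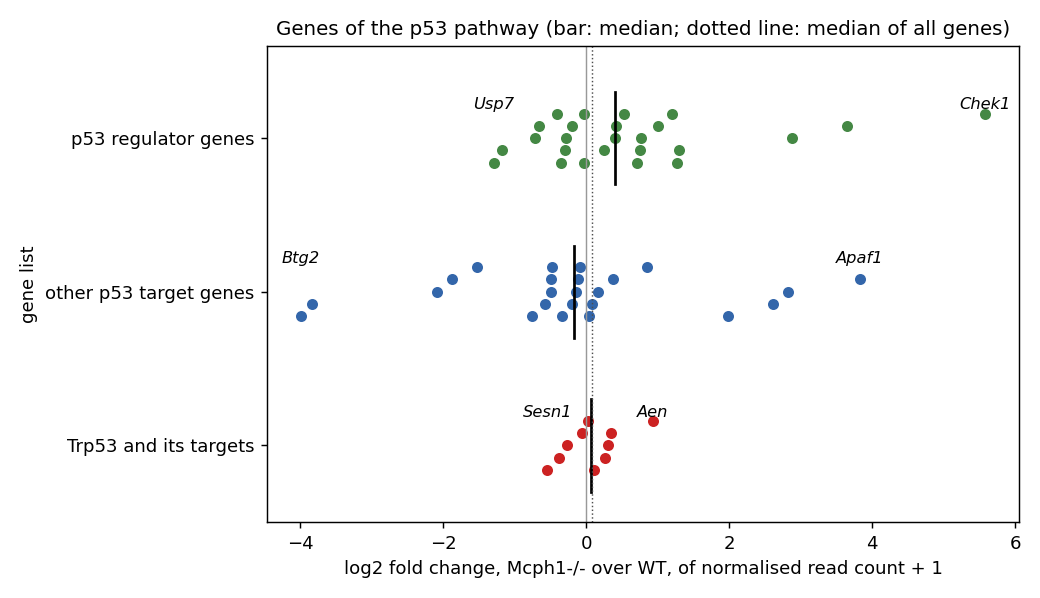
Log2 fold change (Mcph1-/- over WT, horizontal axis) of the 10 members, 24 other p53 target genes and 25 regulators of p53, 1 point per gene, with the lowest and highest of each list named. Black bars are list medians and the dotted line is the median of all tested genes, 0.08, and no point passed the test over all genes.

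Library totals ranged from 8102605 to 10455908 recovered reads, higher in each Mcph1-/- library than in each WT library. Mcph1 itself was read in all 6 libraries, at 160.5, 341 and 34.4 in WT and 428, 37.7 and 234 in Mcph1-/-, so reads summed over the gene are no check of the genotype, which is taken from the labels. Of 17 genes taken as stem cell markers 16 were listed, with a summed value of 19696 to 24070 in WT and 16190 to 18038 in Mcph1-/-. On the log2 scale 6 of them had a higher and 10 a lower Mcph1-/- mean. The sum includes Cd34 and Cd48, and Cd48 stood at 2.17, 120 and 101 in WT and at 296, 1153 and 514 in Mcph1-/-. Slamf1, which encodes the sorted marker CD150, was at 0 in WT replicate 1, and Cd34, whose protein the sort selected against, was read in every library. The 20 cell division genes summed to 7765 to 9366 in WT and 18359 to 20098 in Mcph1-/-, and 13 listed of 14 erythroid markers to 20263 to 42194 and 52651 to 58832. Of these erythroid markers 9 had a higher and 4 a lower Mcph1-/- mean on the log2 scale. Car1 stood at 1628, 1977 and 4566 in WT and at 30038, 23716 and 31845 in Mcph1-/-. The globin gene Hba-a1 went the other way, at 581, 251 and 8516 in WT and at 185, 55.0 and 101 in Mcph1-/-. The 8 listed of 16 neutrophil markers summed to 66017 to 80088 in WT and 7686 to 23154 in Mcph1-/-, and the 7 listed megakaryocyte markers to 6306 to 8727 and 4012 to 4845. The sums of 2 listed monocyte and 4 listed lymphoid markers overlapped between the genotypes. In bulk libraries a change in the mix of cells and a change of RNA per cell cannot be told apart, and the part of these shifts in the members' values was not tested.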

How the data were processed

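The series holds Smart-seq2 RNA-seq of 6 stem cell libraries, read as 150-base pairs, per the labels' protocols. Trim Galore 0.6.6, HISAT2, featureCounts, DESeq2 and mm10 are named without role or order, per the submitters' processing notes, and neither the annotation nor the strand setting is stated there. The deposited values are a signal, gene read counts divided by a size factor (normalised read count), in which 100% of values were whole reads within 0.001 reads, so reads were recovered.

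Genes with a mean of at least 10 were tested with limma 3.58.1 (trend) on log2(value + 1) in R 4.3.3, with genotype as the only term and Benjamini-Hochberg adjustment over all 10846 genes at 0.05. Fold changes of low genes depend on the added 1, and with a library at 0 they can be larger than, smaller than or opposite to those of a count model. edgeR 4.0.16, DESeq2 1.42.0, limma-voom, other scalings, pseudocounts and filters, and each library left out in turn, were alternatives. The fits were run on simulated data with known changes as a check of the code. Pass limits were set only at low dispersion, so that check does not show their power in these data. The members and gene lists were chosen with earlier results of these data known. All 10 members, Mcph1, Cdkn1a, up to 5 genes with the smallest p of each pathway list, and the 3 genes most like Trp53, Mdm2 and Bax were named by rule (1 of them is not reported here). Gene positions and exonic lengths come from GENCODE vM21 (mm10), 1-based, and promoter windows from RefSeq. Counting floors (3 reads, a value of 2.46 to 3.25) cover counting error only. Replicates were compared for duplicate deposits and none was found (chi-square per degree of freedom at least 82.9). Chromatin accessibility data are not analysed here.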

Additional observations from a re-analysis of the deposited data

How the results depend on the processing

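In 16 alternative analyses the number of members called was 0 each time, and the lowest adjusted p of any member was 0.401. The number of genes called over all genes, 4 by limma-trend, was 2 by edgeR, 234 by DESeq2, 1 by limma-voom and 1 to 4 with a library left out. The number of members with a positive log2 fold change, 6, was 3 to 7 with a library left out and 3 without Mcph1-/- replicate 3. Of 159 recomputed member values 138 kept their sign and 21 did not. Trp53, Bax and Sesn1 kept theirs in every alternative. With no filter on low values, a mean filter of 50 or the replicate block, log2 fold changes equal those of the main fit by construction. The 138 therefore include values whose sign could not change. By edgeR the log2 fold change was -0.16 for Ccng1, 1.60 for Ei24 and -1.03 for Cdkn1a. By DESeq2 it was -0.19, 1.58 and -1.07, and Plk2 (-1.88) and Set (0.53) passed. With a pseudocount of 16 it was 0.58 for Ei24 and -0.20 for Cdkn1a. The cause was not tested. With a library left out, log2 fold changes ran from -0.70 to 0.36 for Mdm2, -0.60 to 0.63 for Ccng1, -1.68 to 1.50 for Trp53inp1, -0.46 to 1.89 for Aen, -2.11 to 2.28 for Ei24, -1.97 to 2.24 for Gadd45a, -2.73 to 0.96 for Fas, -1.45 to 1.23 for Cdkn1a and -0.58 to 1.34 for Mcph1. Trp53inp1 has no value with a mean filter of 50. The labels do not state that replicate numbers pair the libraries. The deviations of same-numbered WT and Mcph1-/- libraries from their group means correlated at -0.01, 0.02 and -0.03 across genes. With 3 widely spread libraries per genotype, these values cannot show whether any were paired. With the replicate block 3 genes and 0 members were called. Each library holds 200 cells, and 4 members had a library with no read. Their reads differed widely within a genotype, as for Ei24 with 0 and 489 reads in Mcph1-/- libraries. The direction of these members was therefore not resolved in these libraries.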

Other observations

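No change passed the test for 5 targets of p53 with a role in DNA repair, chosen by that role after their values were seen, and each 95% interval spanned 0. Ddb2 and Xpc, which recognise ultraviolet lesions for nucleotide excision repair, had log2 fold changes of -0.57 (SE 0.68) and 0.85 (SE 1.16), and Ercc5, an endonuclease of the same pathway, one of 2.82 (SE 2.01). Polk, a polymerase that copies past damaged bases, had 1.99 (SE 2.17), and Rrm2b, the ribonucleotide reductase subunit that p53 induces, had -0.76 (SE 0.98). Ercc5 stood at 0, 121 and 18.2 in WT and at 84.8, 36.9 and 251 in Mcph1-/-. Polk stood at 169, 0 and 169 in WT and at 242, 223 and 32.1 in Mcph1-/-. With a WT library at 0, the log2 fold changes of Ercc5 and Polk depend on the added 1. The limma adjusted p of these 5 genes ran from 0.721 to 0.854. Triap1, a p53 target that restrains apoptosis and also chosen after its values were seen, stood at 754, 757 and 638 in WT and at 595, 486 and 829 in Mcph1-/-, with all WT libraries inside the Mcph1-/- range.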
